A study of Capra hircus with 9 samples.

Results

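Oxidative phosphorylation transcripts of the goat mammary gland were the 62 transcripts that the authors' pathway list places under oxidative phosphorylation, after its 23 V-type proton pump transcripts were left out, of 9131 transcripts in the authors' deposited table of differential expression. The 62 transcripts came from 53 assembled components and carried 48 protein descriptions, of which 34 had names that match symbols in the RefSeq gene table. By description, 30 belonged to complex I, 3 to complex II, 6 to complex III, 6 to complex IV and 10 to complex V, while 3 encode assembly proteins of complex IV and 4 encode phosphatases that the pathway list also holds. Subunits whose description names 1 gene are called by its symbol here, and the others by the description itself.

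Mammary tissue of Xinong Saanen dairy goats was sampled in 3 non-lactation glands (animals neither lactating nor pregnant), 3 dry-off glands taken 310 days postpartum and 3 lactation glands taken 100 days postpartum. No treatment or genotype is given, and RNA was poly(A)-selected from whole tissue. The labels leave unsaid whether each sample is a separate animal, so p-values measure only the spread between these samples, which may be technical. The authors' deposited table gives 1 mean RPKM per stage (reads scaled to transcript length and to the number of reads in the library) and, for each pair of stages, a p-value and a false discovery rate (FDR) by a test it does not name. Values of single samples and their depth were not analysed here, so no spread stands beside a mean and precision from depth is unknown. A transcript is said to have risen or fallen only where that FDR was below 0.05.

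Oxidative phosphorylation is the route by which mitochondria turn the energy of food into ATP. Complexes I and II pass electrons from NADH and succinate to ubiquinone, complex III passes them to cytochrome c and complex IV to oxygen, and complexes I, III and IV pump protons across the inner membrane. Complex V, the ATP synthase, lets the protons flow back and makes ATP. Some core subunits are encoded in mitochondrial DNA and the rest in the nucleus, and the secreting mammary epithelium is known for its high demand for ATP.

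In dry-off glands all 62 transcripts had higher mean levels than in lactation glands, and 32 of them rose by the authors' FDR, which is 51.6% against 65.9% of the whole table. None fell, against 0.69% of the whole table. The ratio of means ran on the plain log2 scale between 0.47 and 2.32 with a median of 1.27, or 2.41-fold, and 41 of the 62 were at least 2-fold higher in dry-off glands. Of the 30 that missed the threshold, 23 had an FDR between 0.05 and 0.1, and 54 of the 62 were higher at an unadjusted p below 0.05, as were 86.9% of the whole table. These counts describe transcripts that appear already selected for differing between stages, by a criterion not given in the sources used here. An unadjusted p below 0.05 in at least 1 comparison was found for 8561 of the 9131 in the table, and for 61 of the 62.

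The shift of the whole table in the same direction was larger. On the scale of log2(mean RPKM + 1), which lowers the weight of weakly expressed transcripts, the members' median difference was 1.13, against 1.47 over the whole table, 0.99 over 44 cytosolic ribosomal protein transcripts and 1.42 over the 23 V-type transcripts. Set against the whole-table median of 2.09 on the plain log2 scale, 2 of the 32 that rose lay above it and 30 below it. Set against the ribosomal protein median of 1.00, 24 lay above it and 8 below it. The direction of the members relative to the other transcripts thus turned on which set was used for scaling.

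**Figure D1:**
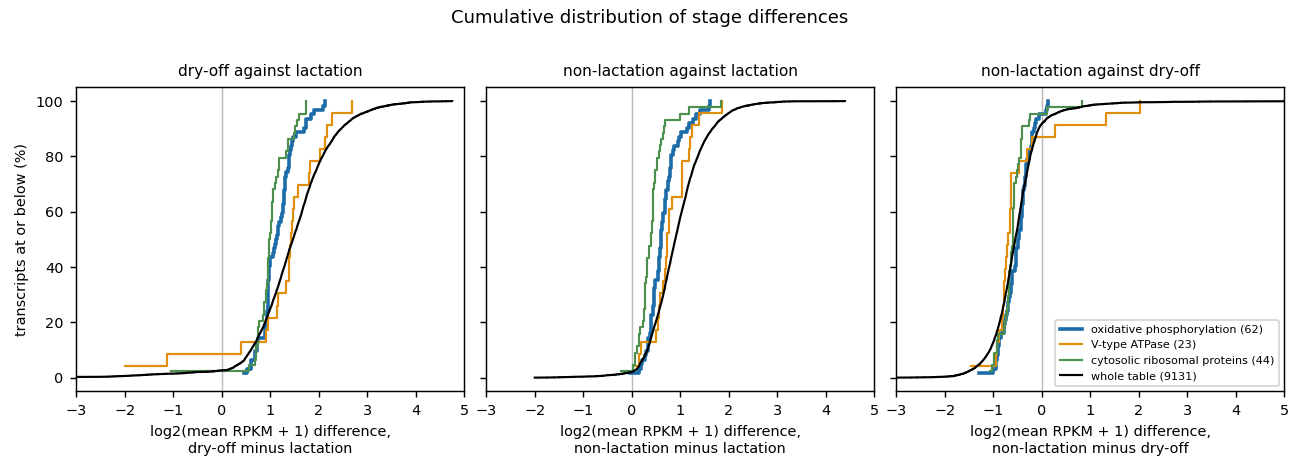
Cumulative percentage of transcripts (vertical axis) at or below a given difference of log2(mean RPKM + 1) between 2 stages (horizontal axis), for the 62 oxidative phosphorylation transcripts, 23 V-type ATPase transcripts, 44 cytosolic ribosomal proteins and the whole table, 1 panel per comparison. In dry-off against lactation the oxidative phosphorylation median of 1.13 lies between that of ribosomal proteins (0.99) and that of the whole table (1.47).

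Complex I, the entry point for electrons from NADH, had 14 of its 30 transcripts rise in dry-off against lactation glands, with a median log2 ratio of 1.30 and no transcript with a lower mean. That is 46.7%, against 65.9% of the whole table, where the median log2 ratio was 2.09. The strongest case by FDR was NDUFS1, the largest iron-sulfur subunit of the NADH-oxidising module. NDUFS1 had 16.5 RPKM in non-lactation, 18.2 RPKM in dry-off and 4.74 RPKM in lactation glands, a 3.83-fold difference of dry-off over lactation (FDR 0.00465) in the authors' deposited table. Its non-lactation mean lay close to its dry-off mean, and both were well above the lactation mean. Of the 9 transcripts of this module, 4 rose, namely NDUFS1, NDUFA2 and 1 transcript each of NDUFS6 and NDUFV2.

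Transcripts of 1 component can share reads and did not always fall on the same side of the threshold. One NDUFS6 transcript had 11.3 RPKM in non-lactation, 22.6 RPKM in dry-off and 9.71 RPKM in lactation glands (dry-off against lactation FDR 0.0163) in the authors' deposited table. The second NDUFS6 transcript had 14.8 RPKM in non-lactation, 19.3 RPKM in dry-off and 13.2 RPKM in lactation glands (FDR 0.0634), the smallest log2 ratio of complex I at 0.55, in the authors' deposited table. NDUFS6 is an accessory subunit needed late in the assembly of complex I, and its 2 transcripts had dry-off over lactation ratios of 2.32-fold and 1.47-fold. NDUFV2, a 2-iron 2-sulfur subunit, likewise had FDR values of 0.0242 and 0.0621 for its 2 transcripts, at nearly the same ratios of 2.50-fold and 2.47-fold, in the authors' deposited table.

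In the ubiquinone-reducing module, 3 of 4 transcripts rose, against 65.9% of the whole table. NDUFA9, an accessory subunit of this module, had 24.6 RPKM in non-lactation, 46.4 RPKM in dry-off and 13.6 RPKM in lactation glands, 3.41-fold higher in dry-off than in lactation, at an FDR of 0.0326 in the authors' deposited table. NDUFS3, a core subunit, had 38.8 RPKM in non-lactation, 49.0 RPKM in dry-off and 25.1 RPKM in lactation glands, 1.95-fold higher in dry-off at an FDR of 0.0141 in the authors' deposited table. NDUFA5, an accessory subunit, was 2.17-fold higher at an FDR of 0.151 that missed the threshold in the authors' deposited table.

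The nuclear-encoded subunits of the membrane arm, which surround the proton channels, rose in 6 of 11 transcripts with a median log2 ratio of 1.26, those of NDUFA10 (2 transcripts), NDUFB2, NDUFB3, NDUFB9 and NDUFC1. The whole table had 65.9% rise and a median of 2.09. NDUFB9 had the largest ratio of these, with 40.5 RPKM in non-lactation, 82.9 RPKM in dry-off and 29.1 RPKM in lactation glands (dry-off against lactation FDR 0.0406) in the authors' deposited table. NDUFB2 was the member that passed nearest to the threshold among the subunits of this arm, with 14.5 RPKM in non-lactation, 17.5 RPKM in dry-off and 8.62 RPKM in lactation glands (FDR 0.0476) in the authors' deposited table. The 5 that missed it (NDUFA8, NDUFB4, NDUFB5, NDUFC2 and NDUFS5) had FDR values between 0.0540 and 0.0598 in the authors' deposited table. NDUFAB1, the mitochondrial acyl carrier protein that also sits in complex I, was 2.53-fold higher in dry-off than in lactation, at an FDR of 0.0154 in the authors' deposited table.

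Complex I also held 2 transcripts described as NDUFA4, a protein annotated to complex I that is now counted with complex IV. Their description may stand for more than 1 gene. The weaker transcript had 18.1 RPKM in non-lactation, 26.6 RPKM in dry-off and 5.32 RPKM in lactation glands, the largest ratio of all 62 at 5.0-fold, yet its FDR of 0.0735 missed the threshold in the authors' deposited table. The stronger had 406 RPKM in non-lactation, 384 RPKM in dry-off and 240 RPKM in lactation glands (dry-off against lactation 1.60-fold, FDR 0.111) in the authors' deposited table. Non-lactation was thus the highest stage for the abundant NDUFA4 transcript and dry-off for the weak one.

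**Figure D2:**
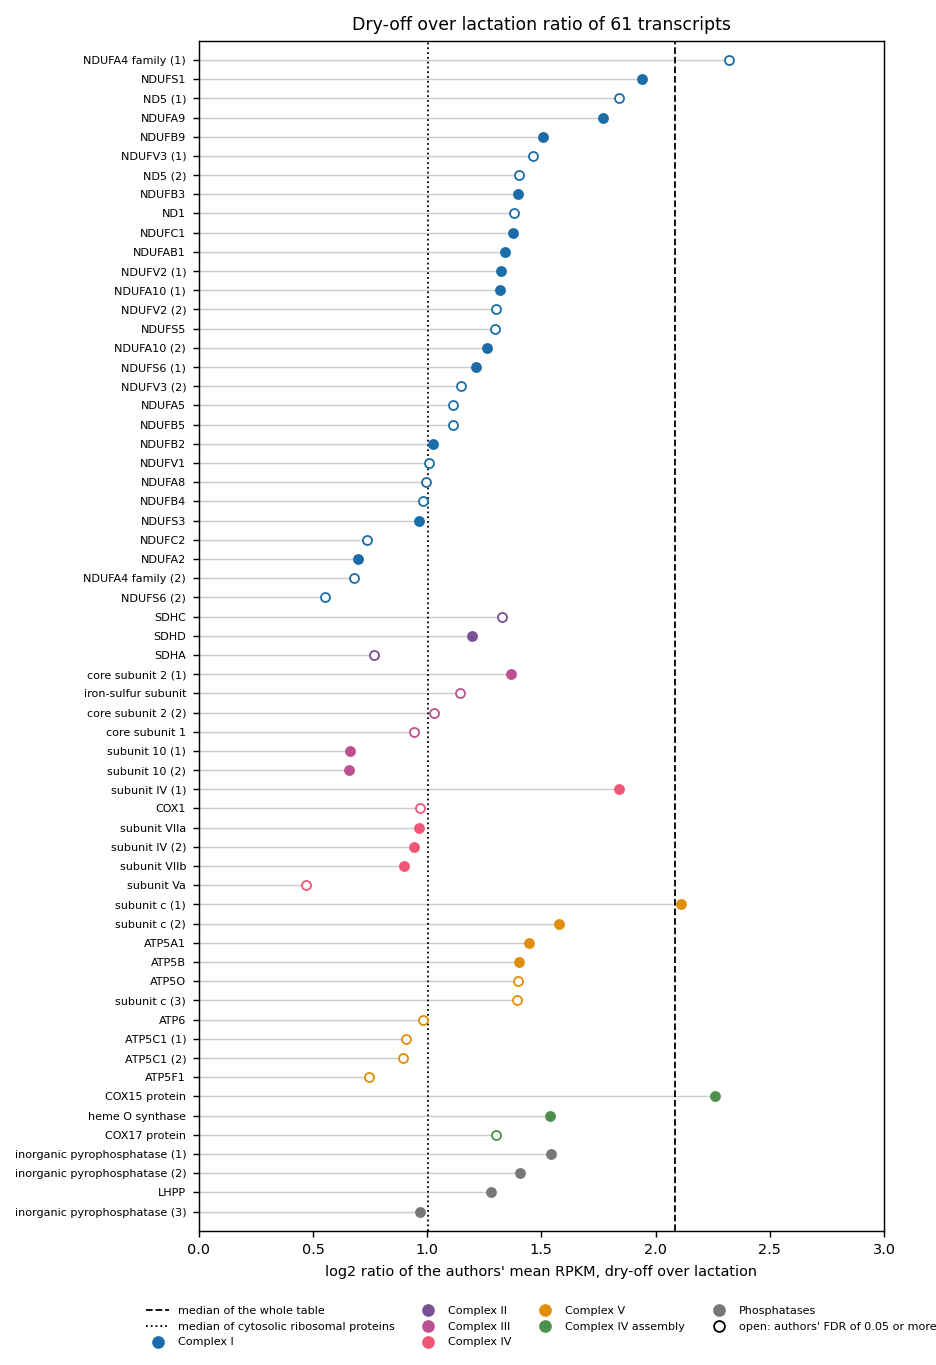
Log2 ratio of the authors' mean RPKM, dry-off over lactation (horizontal axis), for 61 of the 62 transcripts (rows, grouped by complex and numbered where a name has several transcripts). Filled points passed the authors' FDR of 0.05, the dashed line is the whole-table median (2.09) and the dotted line the ribosomal protein median (1.00), and all points lie above 0 with 3 beyond the dashed line.

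Complex II, which oxidises succinate and is also an enzyme of the citric acid cycle, had 1 of 3 transcripts rise in dry-off against lactation glands. That is 33.3%, against 65.9% of the whole table. SDHD, a membrane anchor, had 73.2 RPKM in non-lactation, 82.0 RPKM in dry-off and 35.8 RPKM in lactation glands (dry-off against lactation 2.29-fold, FDR 0.0160) in the authors' deposited table. SDHC, the other anchor, had 28.3 RPKM in non-lactation, 40.1 RPKM in dry-off and 16.0 RPKM in lactation glands (FDR 0.0566) in the authors' deposited table. SDHA, the catalytic flavoprotein, had 62.6 RPKM in non-lactation, 68.6 RPKM in dry-off and 40.3 RPKM in lactation glands (FDR 0.0558) in the authors' deposited table. Both misses lay just past the threshold, and all 3 transcripts had their lowest mean in lactation.

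Complex III, which hands electrons to cytochrome c, had 3 of 6 transcripts rise in dry-off against lactation glands, with a median log2 ratio of 0.99. That is 50%, against 65.9% of the whole table, where the median log2 ratio was 2.09. The 3 complex III transcripts that rose came from 2 components. Core subunit 1, a structural subunit on the matrix side, had the highest means, with 60.1 RPKM in non-lactation, 62.3 RPKM in dry-off and 32.4 RPKM in lactation glands (dry-off against lactation FDR 0.0802) in the authors' deposited table. One transcript of core subunit 2, its structural partner, had 11.2 RPKM in non-lactation, 16.0 RPKM in dry-off and 6.19 RPKM in lactation glands (FDR 0.0200) in the authors' deposited table. The other transcript of core subunit 2 had 16.6 RPKM in non-lactation, 19.6 RPKM in dry-off and 9.57 RPKM in lactation glands (FDR 0.0515), the nearest miss of all 62, in the authors' deposited table.

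The iron-sulfur subunit of complex III, which carries electrons away from ubiquinol, had 25.1 RPKM in non-lactation, 33.7 RPKM in dry-off and 15.2 RPKM in lactation glands (FDR 0.0590) in the authors' deposited table. Subunit 10, a small accessory subunit, rose in both of its transcripts with the same modest ratio of 1.58-fold. Its transcripts had 12.1 and 13.3 RPKM in non-lactation, 14.1 and 15.6 RPKM in dry-off and 8.91 and 9.87 RPKM in lactation glands (FDR 0.0217 and 0.0211) in the authors' deposited table. Counted as 1 transcript per component, the one with the highest mean, complex III kept 1 rise, in place of 3.

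Complex IV, the oxidase that reduces oxygen to water, had 4 of 6 transcripts rise in dry-off against lactation glands, with a median log2 ratio of 0.95. That is 66.7%, near the 65.9% of the whole table, where the median log2 ratio was 2.09. COX1, its mitochondrially encoded catalytic subunit, was the most abundant of all 62 transcripts, with 5451 RPKM in non-lactation, 6539 RPKM in dry-off and 3344 RPKM in lactation glands (dry-off against lactation 1.96-fold, FDR 0.107) in the authors' deposited table. COX1 missed the threshold and made up 90.5% of the summed complex IV RPKM in non-lactation, 89.9% in dry-off and 89.3% in lactation glands.

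The description subunit IV, a nuclear-encoded regulatory subunit with more than 1 isoform, covered 2 transcripts of very different abundance that both rose. The abundant one had 216 RPKM in non-lactation, 305 RPKM in dry-off and 159 RPKM in lactation glands (FDR 0.0192) in the authors' deposited table. The weak one had 2.05 RPKM in non-lactation, 3.80 RPKM in dry-off and 1.06 RPKM in lactation glands (FDR 0.0467) in the authors' deposited table. Which isoform each transcript belongs to was not determined here.

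The small subunits VIIa and VIIb of complex IV rose to a like extent. Subunit VIIa had 46.1 RPKM in non-lactation, 71.2 RPKM in dry-off and 36.5 RPKM in lactation glands (FDR 0.0356) in the authors' deposited table. Subunit VIIb had 219 RPKM in non-lactation, 274 RPKM in dry-off and 147 RPKM in lactation glands (FDR 0.0405) in the authors' deposited table. Subunit Va, a nuclear-encoded subunit of the matrix side, was the exception, with 85.5 RPKM in non-lactation, 79.8 RPKM in dry-off and 57.6 RPKM in lactation glands (dry-off against lactation 1.38-fold, FDR 0.199) in the authors' deposited table. Its ratio of dry-off over lactation was the smallest and its FDR the largest of all 62.

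Complex V, the ATP synthase, had 4 of 10 transcripts rise in dry-off against lactation glands, with a median log2 ratio of 1.40. That is 40%, against 65.9% of the whole table, where the median log2 ratio was 2.09. ATP5B, the catalytic beta subunit of the F1 head, had 151 RPKM in non-lactation, 204 RPKM in dry-off and 77.1 RPKM in lactation glands (dry-off against lactation 2.64-fold, FDR 0.00647) in the authors' deposited table. ATP5A1, the alpha subunit that alternates with beta in the head, had 89.8 RPKM in non-lactation, 138 RPKM in dry-off and 50.8 RPKM in lactation glands (2.72-fold, FDR 0.0142) in the authors' deposited table. Alpha and beta thus differed between dry-off and lactation by nearly the same ratio. ATP5C1, the gamma subunit that turns inside the head, had 2 transcripts of 1 component at 1.88-fold and 1.86-fold (FDR 0.131 and 0.133), which missed the threshold in the authors' deposited table.

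The membrane ring of complex V is built from subunit c, a protein that mammals encode in several genes. The most abundant of its 3 transcripts had 152 RPKM in non-lactation, 247 RPKM in dry-off and 57.1 RPKM in lactation glands, 4.32-fold higher in dry-off than in lactation (FDR 0.00519) in the authors' deposited table. A further transcript had 58.3 RPKM in non-lactation, 67.5 RPKM in dry-off and 22.6 RPKM in lactation glands (FDR 0.0431), and the weakest 1.77, 3.66 and 1.39 RPKM in non-lactation, dry-off and lactation glands (FDR 0.0685), in the authors' deposited table. The first of these had the largest ratio of complex V and, with COX15, was 1 of the 2 that rose by more than the whole-table median.

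In the stalk of complex V no transcript passed the threshold. ATP5O, which links the head to the stalk, had 81.1 RPKM in non-lactation, 156 RPKM in dry-off and 59.2 RPKM in lactation glands (dry-off against lactation 2.64-fold, FDR 0.107) in the authors' deposited table. ATP5F1, the stalk subunit b, had 74.1 RPKM in non-lactation, 97.5 RPKM in dry-off and 58.3 RPKM in lactation glands (1.67-fold, FDR 0.0684), the smallest ratio of complex V, in the authors' deposited table. ATP5O and ATP5B therefore had like ratios of means but lay on opposite sides of the threshold.

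**Figure D3:**
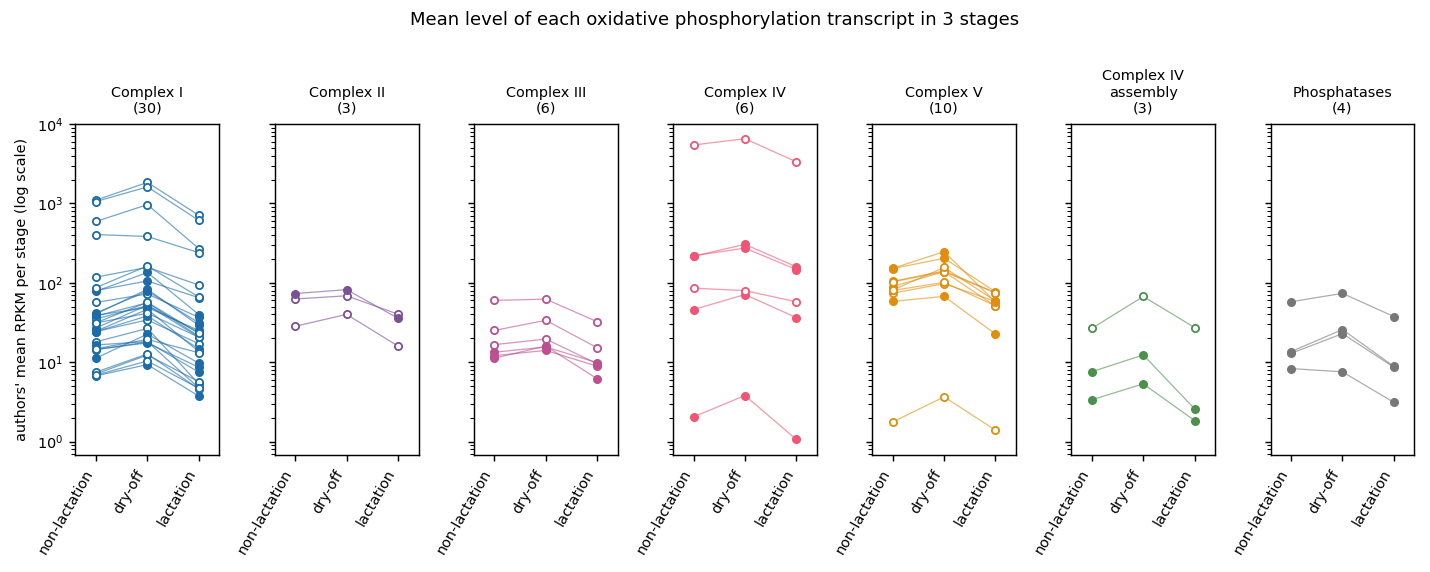
Authors' mean RPKM on a log axis (vertical) in non-lactation, dry-off and lactation glands (horizontal), 1 line per transcript and 1 panel per complex, with filled points where dry-off against lactation passed the FDR of 0.05. Most lines peak in dry-off, COX1 stands at the top with 5451, 6539 and 3344 RPKM in non-lactation, dry-off and lactation glands, and lactation is the lowest stage for all but COX17.

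The complex IV assembly proteins of the pathway list had 2 of 3 transcripts rise in dry-off against lactation glands, beside 65.9% of the whole table. Heme O synthase and COX15 act one after the other to make heme A, the cofactor of complex IV. Heme O synthase had 3.37 RPKM in non-lactation, 5.33 RPKM in dry-off and 1.84 RPKM in lactation glands (dry-off against lactation 2.90-fold, FDR 0.00404), the smallest FDR of all 62, in the authors' deposited table. COX15 had 7.60 RPKM in non-lactation, 12.3 RPKM in dry-off and 2.58 RPKM in lactation glands (4.79-fold, FDR 0.00809) in the authors' deposited table. COX17, which delivers copper to complex IV, had 26.7 RPKM in non-lactation, 67.2 RPKM in dry-off and 27.3 RPKM in lactation glands (2.46-fold, FDR 0.0571) in the authors' deposited table.

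The 4 phosphatase transcripts of the pathway list all rose in dry-off against lactation glands, beside 65.9% of the whole table. The 3 described as inorganic pyrophosphatase, which splits pyrophosphate, had FDR values of 0.0179, 0.0192 and 0.0485 at ratios of 2.65-fold, 2.91-fold and 1.96-fold in the authors' deposited table. The description covers a cytosolic and a mitochondrial enzyme in mammals, and 2 of the transcripts share a component. LHPP, a phosphatase that also cleaves phosphohistidine, had 8.31 RPKM in non-lactation, 7.56 RPKM in dry-off and 3.12 RPKM in lactation glands (2.43-fold, FDR 0.00622) in the authors' deposited table.

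The transcripts encoded in mitochondrial DNA, of which COX1, ND1 and ND5 were among the most abundant of the 62 and ATP6 was not, differed between dry-off and lactation glands by about the same ratio as the nuclear ones, but none of the 5 passed the threshold. ND1, a complex I subunit at the ubiquinone site, had 1102 RPKM in non-lactation, 1842 RPKM in dry-off and 709 RPKM in lactation glands (dry-off against lactation 2.60-fold, FDR 0.0773) in the authors' deposited table. ND5, a proton-pumping complex I subunit, had 1058 and 593 RPKM in non-lactation, 1616 and 967 RPKM in dry-off and 612 and 270 RPKM in lactation glands for its 2 transcripts (FDR 0.0943 and 0.0532) in the authors' deposited table. ATP6, the channel subunit of complex V, had 80.1 RPKM in non-lactation, 101 RPKM in dry-off and 51.3 RPKM in lactation glands (FDR 0.0741) in the authors' deposited table. The 50 nuclear-encoded subunits of the complexes rose in 26 cases, or 52%, against 65.9% of the whole table. Whether the difference in calls from the mitochondrial ones exceeds the spread between samples was not tested.

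Summed over transcripts, the mitochondrially encoded subunits came to 8284 RPKM in non-lactation, 11065 RPKM in dry-off and 4986 RPKM in lactation glands, and the nuclear-encoded subunits to 2988, 4050 and 1902 RPKM in non-lactation, dry-off and lactation glands. The dry-off over lactation ratio of these sums was 2.22 for the mitochondrial and 2.13 for the nuclear subunits. The mitochondrial transcripts held 72.7% of the members' summed RPKM in non-lactation, 72.2% in dry-off and 71.5% in lactation glands. The 5 transcripts therefore kept nearly the same part of the sum in all 3 stages. They stand for COX1, ND1, ND5 and ATP6 only, and COX1 weighs most in the sums. COX1 gave 5451 of the 8284 RPKM in non-lactation, 6539 of the 11065 in dry-off and 3344 of the 4986 in lactation glands. The single dry-off over lactation ratios of the 5 ran from 1.96-fold for COX1 to 3.58-fold for 1 ND5 transcript.

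Between the complexes, the dry-off over lactation ratio of summed RPKM was 2.54 for complex I, 2.07 for complex II, 1.96 for complex III, 1.94 for complex IV and 2.45 for complex V. No spread over samples is given for these sums, so their order is a description. The order of levels among the 62 transcripts was much alike in all stages: Spearman's rho between 2 stages was 0.98 in each of the 3 pairs, over transcripts that share the same libraries and lengths, against 0.81 to 0.93 over the whole table. Of the 10 transcripts with the highest mean in dry-off glands, 8 were also among the 10 highest in lactation glands. Between the ratio of dry-off over lactation and the highest of the 3 stage means, Spearman's rho was -0.17 across the 62 transcripts, which are not independent replicates. For most of them that highest mean was the dry-off mean, which is also part of the ratio. This rho therefore cannot show how the ratio relates to a level measured apart from it.

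Non-lactation against lactation glands showed the same direction at a smaller size. Of the 62 transcripts 61 had a higher mean in non-lactation, with a median log2 ratio of 0.63, or 1.55-fold, but none rose by the authors' FDR, against 0.011% of the whole table. At an unadjusted p below 0.05, 27 were higher in non-lactation, against 41.5% of the whole table, with 11 of them in complex I, 2 in complex II, 5 in complex III, 3 in complex IV and 4 in complex V. On the log2(mean RPKM + 1) scale the members' median difference was 0.61, against 0.90 over the whole table and 0.39 over ribosomal proteins. The smallest FDR was 0.109 for subunit Va (1.48-fold), followed by 0.119 for NDUFS1 (3.48-fold), in the authors' deposited table.

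Subunit Va and NDUFS1 thus led this comparison, although subunit Va had the weakest evidence of all 62 in dry-off against lactation. The largest non-lactation over lactation ratios after NDUFS1 were 3.40-fold for the weaker NDUFA4 transcript and 2.95-fold for COX15 (FDR 0.137 and 0.129) in the authors' deposited table. COX17 was the only one of the 62 with a lower mean in non-lactation than in lactation, at a ratio of 0.980 (FDR 0.958) in the authors' deposited table.

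Non-lactation against dry-off glands had 59 of the 62 transcripts at a lower mean in non-lactation, with a median log2 ratio of -0.50, but none fell by the authors' FDR, against 0% of the whole table. At an unadjusted p below 0.05, 28 were lower in non-lactation, against 38.5% of the whole table, and none was higher. On the log2(mean RPKM + 1) scale the members' median difference was -0.48, against -0.55 over the whole table and -0.60 over ribosomal proteins. The smallest FDR was 0.154, reached among others by NDUFS6 and subunit c at ratios of 0.500 and 0.617 in the authors' deposited table. COX17 had the lowest ratio of the 62 in the authors' deposited table, with non-lactation over dry-off at 0.398 (FDR 0.175).

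The 3 transcripts with a higher mean in non-lactation than in dry-off were LHPP, the stronger NDUFA4 transcript and subunit Va, at ratios of 1.10, 1.06 and 1.07 (FDR 0.636, 0.646 and 0.729) in the authors' deposited table. Over all 3 stages, 58 of the 62 were highest in dry-off and lowest in lactation (93.5%, against 91.1% of the whole table). The 3 comparisons share their stage means, so the counts are not independent of each other.

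Given as a share of the summed mean RPKM of the whole table, the 62 transcripts held 5.74% in non-lactation, 5.93% in dry-off and 4.18% in lactation glands. That sum covers 9131 transcripts, while the authors' list describes 51299, so it is not all RNA of the gland. LALBA and GLYCAM1, genes of secreted milk proteins, with 3 transcripts, held 21.5% of the same sum in non-lactation, 0.523% in dry-off and 49.9% in lactation glands. With these 3 transcripts left out of the sum, the oxidative phosphorylation share was 7.31% in non-lactation, 5.96% in dry-off and 8.34% in lactation glands. No transcripts of other milk genes were left out. The direction of dry-off against lactation in this share thus turned when 3 milk transcripts were left out, and the share of each of complexes I to V turned in the same way. RPKM is itself a share of each library's reads, and how far the milk transcripts account for the differences of single members was not tested.

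**Figure D4:**
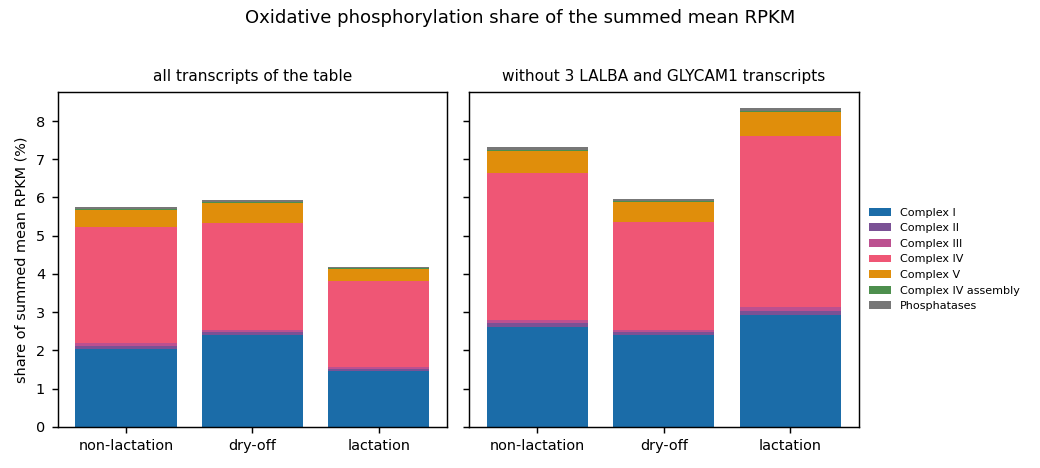
Share of the summed mean RPKM (vertical axis, %) held by the oxidative phosphorylation transcripts in non-lactation, dry-off and lactation glands, stacked by complex, over all transcripts of the table (left) and without 3 LALBA and GLYCAM1 transcripts (right). Dry-off stands above lactation on the left (5.93% and 4.18%) and below it on the right (5.96% and 8.34%).

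Markers of other cells differed between the stages as well, beside 65.9% of the whole table that rose in dry-off against lactation. Summed over the matched markers, 7 macrophage transcripts came to 267 RPKM in non-lactation, 670 RPKM in dry-off and 70.2 RPKM in lactation glands, and 6 of them rose in dry-off against lactation. The 5 T and NK cell markers came to 85.0 RPKM in non-lactation, 239 RPKM in dry-off and 14.2 RPKM in lactation glands (3 rose), and 3 B cell markers to 13.8, 43.6 and 2.60 RPKM in non-lactation, dry-off and lactation glands (1 rose). The 5 fibroblast markers came to 1066 RPKM in non-lactation, 1732 RPKM in dry-off and 228 RPKM in lactation glands (3 rose), and 4 endothelial markers to 134, 210 and 28.1 RPKM in non-lactation, dry-off and lactation glands (2 rose). No matched marker was at 0 in any stage.

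On the epithelial side, CDH1 and EPCAM, the luminal markers, came to 99.5 RPKM in non-lactation, 131 RPKM in dry-off and 47.7 RPKM in lactation glands (1 of 2 rose), while LALBA and GLYCAM1, with 1 transcript each, came to 36805, 1157 and 72176 RPKM in non-lactation, dry-off and lactation glands (both fell in dry-off). Of the myoepithelial markers neither passed. ACTA2 had 489 RPKM in non-lactation, 733 RPKM in dry-off and 303 RPKM in lactation glands, and OXTR had 4.44 RPKM in non-lactation, 0.892 RPKM in dry-off and 1.18 RPKM in lactation glands, in the authors' deposited table. LIPE, the only adipocyte marker matched, had 5.44 RPKM in non-lactation, 4.34 RPKM in dry-off and 1.73 RPKM in lactation glands (rose in dry-off). TNNT3, the only skeletal muscle marker matched, had 1.81 RPKM in non-lactation, 7.28 RPKM in dry-off and 0.439 RPKM in lactation glands (missed the threshold). The part of these cells in the levels of oxidative phosphorylation transcripts was not tested, and in whole tissue fewer cells of a type and less RNA per cell cannot be told apart.

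Genes that feed or serve the respiratory chain were counted beside it. Of 11 citric acid cycle transcripts 8 rose in dry-off against lactation and none fell, beside 65.9% that rose in the whole table, and their median log2 ratio of 1.49 lay below the median of 2.09 over the whole table. CS, citrate synthase, had 32.7 RPKM in non-lactation, 50.3 RPKM in dry-off and 15.4 RPKM in lactation glands (FDR 0.0187) in the authors' deposited table. The transcript described as aconitate hydratase went the other way with 36.7 RPKM in non-lactation, 28.5 RPKM in dry-off and 54.0 RPKM in lactation glands, at an FDR of 0.0839 that missed the threshold in the authors' deposited table. Of 10 transcripts of electron entry, ubiquinone synthesis and carriers 5 rose and none fell, with a median log2 ratio of 1.42, beside the same 65.9% and 2.09 of the whole table. Cytochrome c, the carrier between complexes III and IV, had 19.4 RPKM in non-lactation, 29.2 RPKM in dry-off and 12.4 RPKM in lactation glands (FDR 0.0370) in the authors' deposited table.

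The matched transcripts of mitochondrial biogenesis regulators and polymerases were weakly expressed, and 6 of 7 rose in dry-off against lactation. Their median log2 ratio was 2.26, beside 65.9% and 2.09 in the whole table. The 7 were NRF1, GABPA, the GABPB family, TFAM, POLG, POLG2 and the mitochondrial RNA polymerase. PPARGC1A, PPARGC1B, ESRRA, TFB1M, TFB2M and TWNK were planned but are not among the 7, while POLG2 was not planned. TFAM, which packages mitochondrial DNA and is a transcription factor for it, had 3.01 RPKM in non-lactation, 6.26 RPKM in dry-off and 1.11 RPKM in lactation glands (FDR 0.0236) in the authors' deposited table. NRF1, a transcription factor of respiratory chain genes, had 3.64 RPKM in non-lactation, 4.80 RPKM in dry-off and 1.52 RPKM in lactation glands (FDR 0.00634) in the authors' deposited table. Of the 2 assembly factors outside the pathway list 1 rose, ATP synthase F1 assembly factor 1, with 10.4 RPKM in non-lactation, 20.1 RPKM in dry-off and 3.06 RPKM in lactation glands (FDR 0.0186) in the authors' deposited table. Of 3 subunits that the pathway list does not hold, NDUFB11 rose while NDUFA12 and ATP5S missed the threshold.

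The authors' expression profiles, numbered groups of transcripts with a like course over the stages, placed 31 of the 62 in profile 14 (50.0%, against 57.6% of the whole table), 7 in profile 11 (11.3%, against 28.6%) and 3 in profile 10 (4.84%, against 1.56%). The other 21 were in no profile, 33.9% against 8.05% of the whole table. In the whole table, profile 14 had median levels of 4.06 RPKM in non-lactation, 7.87 RPKM in dry-off and 1.54 RPKM in lactation glands. The 21 outside the profiles, COX1, ATP6, SDHA and both ATP5C1 transcripts among them, had a median log2 ratio of dry-off over lactation of 0.90, and 8 of them rose. The whole table had a median of 2.09, and 65.9% of it rose. The profiles rest on the same stage values as the comparisons and are no separate evidence.

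The authors' correlation list gives the number of transcripts correlated with each transcript, with a median of 7624.5 for the 62 and 7544 for the whole table. The fewest were 991 for subunit Va, the transcript whose ratio of dry-off over lactation was smallest, and the most were 8018. Not every subunit of the complexes has a value here: the authors' list of 51299 described transcripts names 77 subunit descriptions of complexes I to V, of which 46 are in the table of differential expression, 43 are members and 31 were not analysed here. Those 31 include the succinate dehydrogenase iron-sulfur protein, cytochrome c1 and cytochrome c oxidase subunit III, so each complex is described by a part of its subunits.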

How the data were processed

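Goat mammary RNA of 9 samples in 3 stages was sequenced after poly(A) selection, per the labels' protocols. The submitters' processing notes name FastQC alone. The assembler, aligner, counter and genome build were not given in the sources used here. Per the file headers, the authors deposited a mean RPKM for each stage, with p-values and FDR from a test not named in the file. The deposited log2 columns put the stage that comes second in the column name on top of the ratio, in every finite value, so log2 ratios were recomputed from the means. The authors also deposited lists of pathways, profiles and counts of correlated transcripts.

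Members and gene lists were chosen with earlier results of these data known. The design foresaw a model on values per sample; with stage means only, the authors' FDR below 0.05 was used and no test of expression was made here. Single members are given as plain ratios of means, and medians also on log2(mean RPKM + 1), a pseudocount of 1. The table median used for scaling leaves out transcripts with a mean of 0. Transcripts were matched to genes by description wording, and 34 of 48 names were symbols of the RefSeq gene table. Reads shared by transcripts of 1 component, or by near-identical family members, may not have been told apart. How they were assigned is not given. Mitochondrial ribosomal proteins and erythrocyte markers were listed but had no matched transcript. Most other lists, of cell markers and of mitochondrial genes, were matched only in part, with LIPE alone for adipocytes and TNNT3 alone for skeletal muscle. Named transcripts follow a rule: in each complex the highest mean, smallest FDR, largest and smallest ratio, those nearest the threshold, and every member of complexes with 6 or fewer; others were named after their values were seen. One member, counted throughout, is not reported by name here. Alternatives were stricter and looser thresholds, a minimum mean RPKM of 1, a minimum of 2-fold, other pseudocounts (0.1 or none), 1 transcript per component or description, V-type transcripts kept, and centring on the median of either the table or ribosomal proteins. The counting and median steps were tested on simulated data. Python 3.11.15, pandas 2.3.3, numpy 2.4.6 and scipy 1.17.1 were used.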

Additional observations from a re-analysis of the deposited data

How the results depend on the processing

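No paired analysis was possible because the authors' deposited table gives stage means only, and leaving out samples could not be run for the same reason. In dry-off against lactation, the 32 members that rose were 7 at an FDR below 0.01 and 54 at an unadjusted p below 0.05, and 2 of the 32 lay above the whole-table median. The count of 0 that fell became 2 with V-type transcripts kept. Of the 32 that rose, 30 lay below the whole-table median and 8 below the ribosomal protein median, which no test calls a fall. The median difference of 1.13 was 1.25 with a pseudocount of 0.1, 1.27 with none, -0.34 centred on the whole table and 0.14 centred on ribosomal proteins. At an FDR below 0.01, 2 complex I, 0 complex II, 0 complex III, 0 complex IV and 2 complex V transcripts rose. The share of the whole table at an FDR below 0.01 was not counted, so the counts at that threshold have no background beside them. At an unadjusted p below 0.05, 27 complex I, 3 complex II, 6 complex III and 7 complex V transcripts were higher. With a minimum of 2-fold, 1 complex III and 1 complex IV transcript rose, and 1 complex III transcript with 1 per component or per description. In non-lactation against lactation, the count of 0 became 27 at an unadjusted p below 0.05, with 11, 2, 5, 3 and 4 in complexes I, II, III, IV and V, and the median was -0.29 centred on the whole table and 0.21 on ribosomal proteins. In non-lactation against dry-off, the count of 0 became 28 lower at an unadjusted p below 0.05, with 11, 1, 3, 3 and 6 in complexes I, II, III, IV and V, and the median was 0.069 centred on the whole table and 0.12 on ribosomal proteins. The turned signs follow from the subtracted medians. Of the 31 transcripts that the naming rule picks, 12 lost the call at an FDR below 0.01 and 11 gained one at an unadjusted p below 0.05. In 3 alternatives chosen after seeing the data, 26 rose in dry-off against lactation among subunits of complexes I to V alone, 33 with subunits outside the pathway list added and 32 without mitochondrially encoded transcripts. Depth is unknown, so what it limits cannot be given.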
